A study of Arabidopsis thaliana with 48 samples.

Results

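Transcripts of 6 genes for the synthesis of histidine, tryptophan and the aromatic amino acids were followed in Arabidopsis thaliana seedlings after treatment with the herbicide chlorsulfuron. The genes were chosen by name from the array's probe-to-gene table as amino acid synthesis genes outside the branched-chain pathway. This rule uses no measured value, but earlier results of these data were known when it was written. Each had 1 probe set, so 6 of the 22746 probe sets tested were followed. AT-HF (AT4G26900), IGPD (AT3G22425) and HISN5B (AT4G14910) belong to histidine synthesis. AT1G22410 and AT5G66120 belong to the shikimate pathway, and AT2G04400 to tryptophan synthesis.

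The study compared gcn2 mutant with wild-type seedlings of the line Landsberg erecta, 10 days old, of which the aerial part was harvested. Both genotypes were submerged for 1 min, at 2 h after the light came on, in chlorsulfuron (spelled chlorosufuron in the labels) or in solvent alone, here called mock, and were then incubated for 2 h. The 4 seedling groups were thus gcn2 herbicide, gcn2 mock, wild-type herbicide and wild-type mock. The labels state a dose of 0.5 mM and also a 5 mM stock diluted 10000-fold, which gives 0.5 µM, and these doses differ 1000-fold. Total RNA was measured, and also RNA from 30% to 50% sucrose gradients, where 4 fractions each were pooled as non-polysomal RNA, small polysomes and large polysomes. With 3 replicates this made 48 Affymetrix ATH1 arrays. The labels do not name the gcn2 allele, and GCN2 itself was not analysed here. Nor do they say whether the replicates came from separate cultures, and the p-values cover only the spread among these samples, which may be technical.

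Plants make histidine from an activated sugar phosphate and ATP in plastids. The shikimate pathway, also plastidic, runs to chorismate, from which one branch leads to tryptophan and another to phenylalanine and tyrosine. Chlorsulfuron blocks acetolactate synthase, an enzyme of branched-chain amino acid synthesis. GCN2 is a protein kinase that is activated by uncharged tRNA and phosphorylates the translation initiation factor eIF2α. In yeast the related pathway is known as general amino acid control, because starvation for one amino acid raises synthesis genes for many.

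The values as deposited were log2 values, where a difference of 1 is a doubling, and they are relative: a change of all RNAs together is not seen. In this bulk tissue, fewer cells of a type and less RNA per cell cannot be told apart. Array medians ran from 6.15 to 6.31, apart from 5.67 for large polysomes of wild-type mock replicate 1. Large polysome arrays of wild-type mock also scattered most. Over all probe sets, their SD around the group mean was 0.42, 0.36 and 0.58 in replicates 1, 2 and 3. No array of another group exceeded 0.29. Wild-type mock values of polysomal RNA, loading and large minus small polysomes use these arrays. The arrays' lower quartiles spanned 3.44 to 3.83, below every value of the 6 genes. Root marker probe sets of EXPA7, EXPA18 and AT5G17820 had total RNA medians of 3.05, 3.41 and 3.03, at or below that quartile. PYK10, the fourth root marker, stood at 9.98 to 10.99. The 6 shoot markers chosen were not analysed here.

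Wild-type gradients of replicate 3 ran against the others. Across all 22746 probe sets, the herbicide minus mock difference of replicate 3 correlated at -0.61 and -0.63 with those of replicates 1 and 2 in non-polysomal RNA, while replicates 1 and 2 correlated at 0.64 with each other. In small polysomes these values were -0.55, -0.62 and 0.59, and in large polysomes -0.12, -0.12 and 0.39. The same comparison in wild-type total RNA gave 0.58 to 0.69, and in gcn2 gradients 0.51 to 0.78. Whether the herbicide and mock labels of these wild-type arrays were exchanged was not tested. The labels were kept, and every wild-type gradient value by treatment depends on them. Where omitting replicate 3 of both wild-type treatments changed a call of the 6 genes or moved a called value by over 1.5 times, both values are given.

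In the main fit, which did not use the replicate number, none of the 6 genes passed the test in any comparison between treatments or genotypes. The test was limma with Benjamini-Hochberg adjustment over all 22746 probe sets and a threshold of 0.05. Over 20 such comparisons, 5 each in total RNA, polysomal RNA, non-polysomal RNA and polysome loading, 0 of 120 values passed. Of these 120 values, 8 had an unadjusted p under 0.05, and the smallest adjusted p was 0.108. With the replicate number as a block, AT5G66120 passed as lower in wild-type total RNA (limma adjusted p = 0.0298), as did 7.87% of all probe sets. In the main fit, what did pass were positions in the gradient. Transcripts of 5 of the 6 genes lay higher in polysomes than the median probe set in at least 1 of the 4 seedling groups. The same held for 23.9% of all probe sets.

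In total RNA, the question was whether the herbicide moved these synthesis genes in either genotype. In gcn2 0 of 6 passed, against 11.5% of all probe sets, and none had an unadjusted p under 0.05. In wild type 0 of 6 passed, against 6.73% of all probe sets, and 2 had an unadjusted p under 0.05. The median log2 difference of the 6 genes, herbicide minus mock, was -0.17 in gcn2 and -0.17 in wild type, beside medians over all probe sets of -0.061 and -0.024. In wild type all 6 values were below 0, and in gcn2 4 of 6.

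AT-HF encodes the bifunctional imidazole glycerol phosphate synthase, which closes the imidazole ring of histidine. In gcn2 its total RNA was 9.33, 9.40 and 9.27 after herbicide, against 9.15, 9.19 and 9.04 after mock. All 3 herbicide arrays of gcn2 lay above all 3 mock arrays, by 0.21 ± 0.13 (SE) on the log2 scale, and the difference did not pass (limma adjusted p = 0.356). In wild type AT-HF was 9.03, 9.41 and 9.17 after herbicide, against 9.41, 9.25 and 9.12 after mock. Those groups overlapped over nearly their whole range (-0.054 ± 0.13, adjusted p = 0.877).

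IGPD and HISN5B each encode an imidazoleglycerol-phosphate dehydratase, the next enzyme of the pathway, so they are a pair of genes for one step. IGPD in gcn2 was 6.99, 7.25 and 7.16 after herbicide and 7.02, 6.95 and 6.97 after mock. In wild type it was 6.57, 6.94 and 6.97 after herbicide, with the first array apart from the rest, and 6.83, 6.90 and 6.97 after mock. The herbicide minus mock difference of IGPD was 0.16 ± 0.13 in gcn2 (adjusted p = 0.509) and -0.071 ± 0.13 in wild type (adjusted p = 0.831). HISN5B had 8.29, 8.41 and 8.10 after herbicide against 8.51, 8.43 and 8.30 after mock in gcn2. Its wild-type values were 8.16, 8.27 and 8.37 after herbicide against 8.55, 8.22 and 8.32 after mock. The HISN5B groups overlapped in both genotypes, with differences of -0.15 ± 0.13 (adjusted p = 0.537) in gcn2 and -0.092 ± 0.13 (adjusted p = 0.768) in wild type.

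The shikimate and tryptophan genes had values below 0 in both genotypes. AT5G66120 encodes 3-dehydroquinate synthase, the second enzyme of the shikimate pathway. In wild type its total RNA was 9.24, 9.20 and 8.92 after herbicide, against 9.72, 9.55 and 9.21 after mock. Replicate 3 was low in both treatments and the groups overlapped, but each herbicide array was below the mock array of its own number, by 0.29 to 0.48. The difference was -0.37 ± 0.16, a ratio of 0.772 (adjusted p = 0.201).

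Same-numbered samples deviated together in total RNA, so the replicate number was also fitted as a block. With the block, AT5G66120 fell in wild-type total RNA by 0.37 ± 0.11 (limma adjusted p = 0.0298, range 0.0298 to 0.538 over 10 alternatives). It was then 1 of 6 genes called, where the block called 16.0% of all probe sets and 7.87% as lower. In gcn2, AT5G66120 was 9.38, 9.22 and 8.84 after herbicide and 9.40, 9.48 and 9.30 after mock, again lower in each of 3 pairs and with replicate 3 of the herbicide group lowest. That difference was -0.24 ± 0.16 (adjusted p = 0.391, and 0.126 with the block).

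AT1G22410 encodes a 3-deoxy-D-arabino-heptulosonate 7-phosphate synthase, the entry enzyme of the shikimate pathway. Its wild-type total RNA was 10.15, 10.34 and 10.23 after herbicide, all below the mock values of 10.44, 10.56 and 10.48. The herbicide minus mock value, -0.25 ± 0.13, was short of the threshold (limma adjusted p = 0.287). In gcn2 the groups overlapped, with 10.23, 10.30 and 10.10 after herbicide and 10.41, 10.59 and 10.18 after mock (-0.18 ± 0.13, adjusted p = 0.421). Within each replicate number the herbicide array was the lower one, in 3 of 3 pairs of both genotypes. With the replicate block the difference still did not pass (limma adjusted p = 0.121 in wild type and 0.242 in gcn2).

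AT2G04400 encodes indole-3-glycerol phosphate synthase, which forms the indole ring on the way to tryptophan. In wild type it was 9.85, 9.89 and 9.79 after herbicide, all below the mock values of 10.08, 10.07 and 10.23. The difference of -0.28 ± 0.12 had an unadjusted p of 0.0309 and did not pass after adjustment (adjusted p = 0.182, and 0.0979 with the block). In gcn2 it was 9.88, 9.95 and 10.01 after herbicide, and 10.27, 10.21 and 9.98 after mock, where replicate 3 of the mock group lay within the herbicide range (-0.21 ± 0.12, adjusted p = 0.308). Over both genotypes and all 6 genes, the 95% intervals of the herbicide response in total RNA ran from -0.72 to 0.48.

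**Figure D1:**
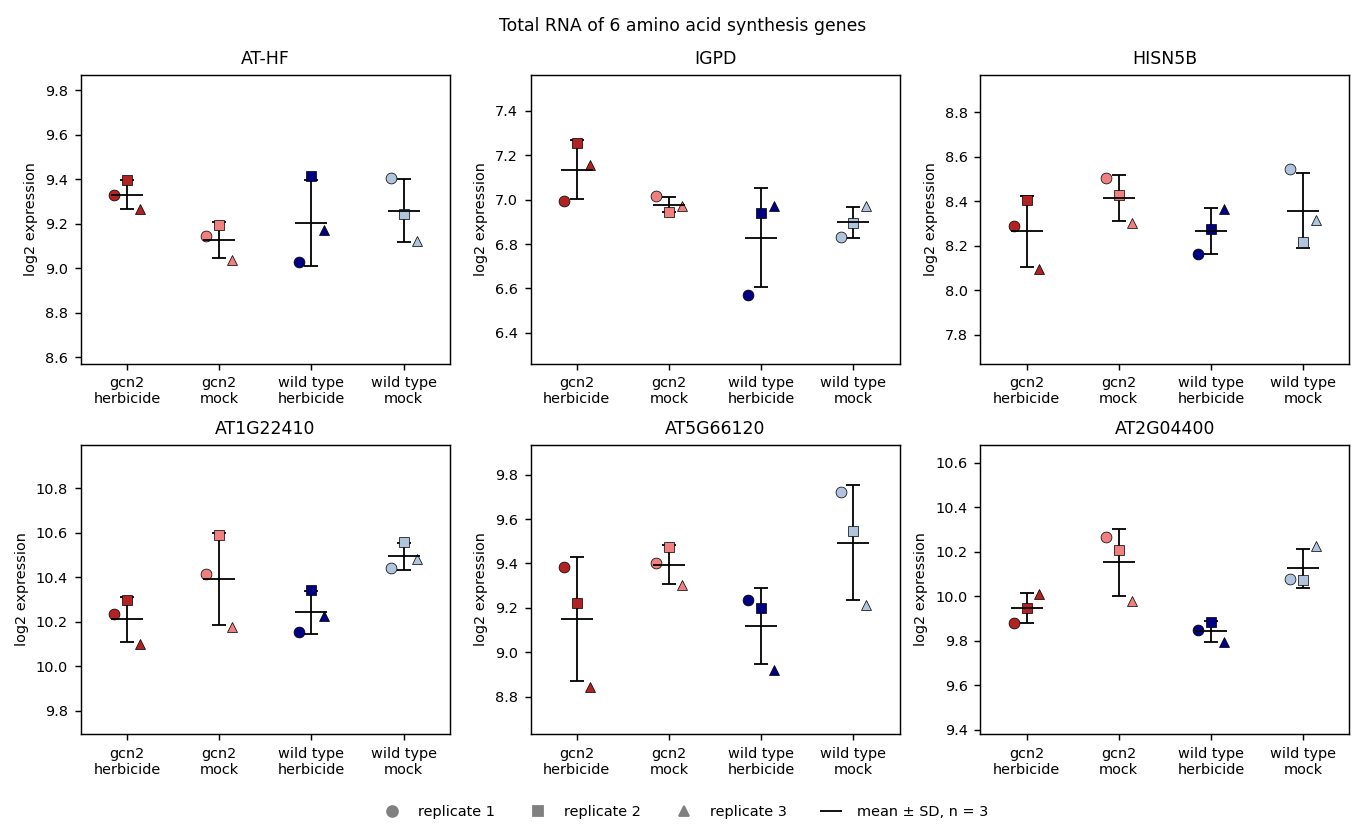
Total RNA of the 6 genes as log2 expression (vertical axis, span of 1.3 in every panel) in the 4 seedling groups (horizontal axis), with each replicate as a point and the mean ± SD of 3 arrays as a bar. The gcn2 herbicide points of AT-HF lie above the gcn2 mock points, and the wild-type herbicide points of AT1G22410 and AT2G04400 lie below the wild-type mock points, while most other groups overlap.

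Whether gcn2 responded otherwise than wild type was tested as an interaction, the gcn2 response minus the wild-type response. In total RNA 0 of 6 genes passed, against 1.53% of all probe sets, and no gene had an unadjusted p under 0.05. The 6 interactions ran from -0.057 for HISN5B to 0.26 ± 0.18 for AT-HF (adjusted p 0.663 to 0.948). Their 95% intervals reached from -0.45 to 0.65, so differences between genotypes of up to about that size are not excluded for these genes.

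The genotypes were also compared within each treatment. Under mock, gcn2 minus wild type was -0.13 to 0.079 over the 6 genes, 0 passed against 0.136% of all probe sets, and 0 had an unadjusted p under 0.05. Under herbicide 0 of 6 passed, against 4.49% of all probe sets, and 1 had an unadjusted p under 0.05. That gene was IGPD, for which the 3 gcn2 values given above all exceeded the 3 wild-type values. The difference was 0.31 ± 0.13 (unadjusted p = 0.0331, adjusted p = 0.238), and the other 5 genes lay between -0.031 and 0.13.

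Other genes of these pathways came from lists of 11 genes for histidine synthesis, 10 for the shikimate pathway, 15 for tryptophan synthesis and 12 for phenylalanine and tyrosine synthesis. Probe sets with a single gene name covered 3, 2, 3 and 2 of them, and the rest were not analysed here. None of 9 listed genes that use tryptophan or phenylalanine was covered. This left 4 genes beside the 6: AT5G48220 and AT4G02610, tryptophan synthesis genes, and AT5G34930 and AT1G15710, which encode arogenate dehydrogenases of tyrosine synthesis.

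Of those 4 genes 1 passed in 1 of the 5 total RNA comparisons. AT1G15710 was 8.61, 8.37 and 8.49 in gcn2 after herbicide, against 8.02, 8.03 and 8.12 in wild type after herbicide. All gcn2 arrays were above all wild-type arrays, by 0.43 ± 0.12 (limma adjusted p = 0.0451). This comparison called 4.49% of all probe sets. AT1G15710 was not refitted with the replicate block or without a replicate. The interaction for AT1G15710 did not pass (0.39 ± 0.16, adjusted p = 0.356). The second tyrosine gene, AT5G34930, had a gcn2 minus wild type difference of 0.59 ± 0.19 under herbicide that did not pass (adjusted p = 0.112). AT5G48220 and AT4G02610 had herbicide minus mock values of -0.16 and -0.27 in gcn2 and of -0.20 and -0.28 in wild type, and none of these passed.

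In the sucrose gradients, RNA bound by several ribosomes sediments faster than free RNA. For each gradient, polysomal RNA is here the average of its small and large polysome arrays, and polysome loading is this average less the value of its non-polysomal array. To ask whether a transcript lay more in polysomes than the median probe set, each gradient was centred on its median over all probe sets. Probe sets as dim as those of EXPA7, EXPA18 and AT5G17820 count in this median. They also count in the shares of all probe sets, which are therefore not shares of expressed genes. Transcripts of these synthesis genes were mostly above 0: of 24 group means, 6 genes in 4 seedling groups, 23 were positive and 13 passed the test, all as higher.

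In gcn2 after herbicide 2 of 6 genes passed as higher, where 13.8% of all probe sets did. In gcn2 after mock 4 of 6 passed, where 14.3% did. In wild type 4 of 6 passed after herbicide and 3 of 6 after mock, where 15.1% and 12.2% of all probe sets passed as higher. The median loading of the 6 genes was 0.36 and 0.50 in gcn2 and 0.50 and 0.47 in wild type, herbicide before mock, and the median over all probe sets lay between -0.0092 and 0.014. The 6 genes were not drawn at random, and these shares describe them only.

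AT5G66120, the dehydroquinate synthase gene, had the highest loading in each of the 4 groups. Its centred loading was 0.69, 0.69 and 1.06 in gcn2 after herbicide and 1.32, 0.98 and 1.27 in gcn2 after mock. In wild type it was 1.33, 1.56 and 1.09 after herbicide and 1.00, 1.16 and 0.78 after mock. All 12 gradients were above 0, and the group means of 0.82, 1.19, 1.33 and 0.98 all passed (limma adjusted p of 0.000476, 1.4e-05, 4.55e-06 and 8.26e-05, in the same order). Without replicate 3 the wild-type means were 1.45 after herbicide and 1.08 after mock, and both still passed.

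AT2G04400, the indole-3-glycerol phosphate synthase gene, was likewise above 0 in 12 of 12 gradients, from 0.25 to 0.95. Its group means were 0.49 and 0.61 in gcn2 after herbicide and after mock, and 0.76 and 0.84 in wild type after herbicide and after mock. All 4 passed (adjusted p of 0.0163, 0.00376, 0.000631 and 3e-04, in the same order). The gcn2 mock gradient of replicate 3 was lowest. Leaving out herbicide replicate 2 or 3 ended the gcn2 herbicide call (0.42 and 0.50), and leaving out mock replicate 2 the gcn2 mock call (0.47). With small polysomes alone both gcn2 calls of AT2G04400 were also lost, at 0.24 after herbicide and 0.32 after mock. Without replicate 3 the wild-type means of AT2G04400 were 0.80 after herbicide and 0.78 after mock, and both still passed.

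AT-HF was above 0 in 12 of 12 gradients, from 0.26 to 0.77. It passed in gcn2 mock (0.39 ± 0.14, adjusted p = 0.0394), wild-type herbicide (0.53 ± 0.14, adjusted p = 0.00657) and wild-type mock (0.52 ± 0.14, adjusted p = 0.00715), while the gcn2 herbicide mean of 0.36 ± 0.14 did not (adjusted p = 0.0564). The gcn2 mock call was lost without any one of its 3 replicates (0.34 to 0.45), and the wild-type herbicide call without replicate 2 (0.40). With small polysomes alone against non-polysomal RNA, AT-HF passed in none of the 4 groups, at 0.082 in gcn2 herbicide, -0.043 in gcn2 mock, 0.15 in wild-type herbicide and 0.19 in wild-type mock. With large polysomes alone AT-HF passed in all 4 groups. Without replicate 3, AT-HF had 0.66 in wild-type herbicide and 0.49 in wild-type mock, and both still passed.

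The other 3 genes passed in 1 group or none. AT1G22410 passed in wild-type herbicide (0.48 ± 0.17, adjusted p = 0.0405, and 0.63 without replicate 3; not passing without replicate 1 or 2, at 0.45 and 0.35, or with small polysomes alone, at 0.17), and its other group means were 0.30 in gcn2 herbicide, 0.27 in gcn2 mock and 0.20 in wild-type mock. The wild-type mock mean of AT1G22410 rested on replicate 3 at 0.71, beside -0.23 and 0.12 in replicates 1 and 2, and was -0.057 without it. HISN5B passed in gcn2 mock, with 0.99, 0.63 and 0.58, all above the gcn2 herbicide values of 0.28, -0.21 and 0.097. That gcn2 mock call, at a mean of 0.73, was lost with large polysomes alone (0.48). With small polysomes alone HISN5B passed in gcn2 mock (0.99), wild-type herbicide (0.54) and wild-type mock (0.78). IGPD passed in no group, with means from -0.072 in wild-type mock to 0.36 in gcn2 herbicide.

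Replicate 3 decided 2 further wild-type values. HISN5B in wild-type mock was 0.64, 0.77 and -0.16, with a mean of 0.42 ± 0.17 that did not pass (adjusted p = 0.076). Without replicate 3 it was 0.71 and passed (adjusted p = 0.00421, range 0.00173 to 0.863 over 10 alternatives). IGPD in wild-type herbicide was 0.51, 0.47 and -0.12. Without replicate 3 its mean was 0.49 and passed (adjusted p = 0.0316, range 0.0316 to 0.642 over 10 alternatives).

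**Figure D2:**
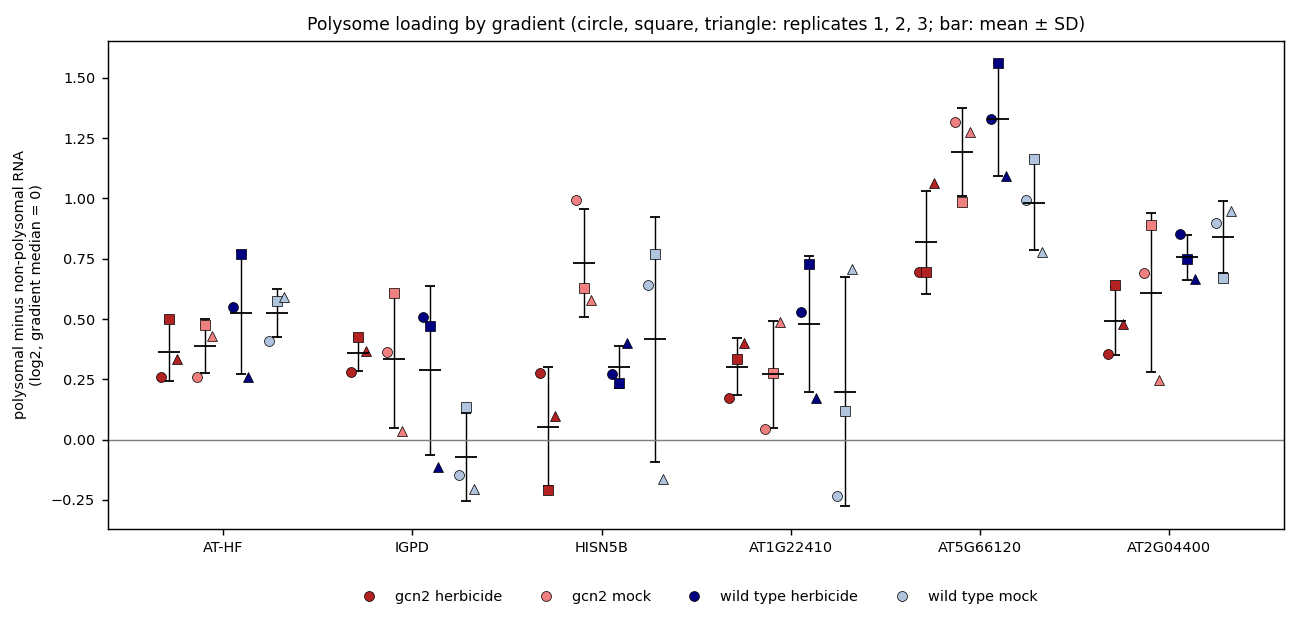
Polysome loading of the 6 genes by gradient, as polysomal minus non-polysomal log2 values with the gradient median at 0 (vertical axis), for the 4 seedling groups of each gene (horizontal axis). Points are gradients and bars the mean ± SD of 3; all 12 points of AT5G66120, AT-HF and AT2G04400 lie above 0, and HISN5B shows the gcn2 herbicide points below the gcn2 mock points.

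Large and small polysomes were then set against each other within a gradient, a comparison added after the values had been seen. Of 24 group means centred on the gradient median, 17 passed, 14 as higher in large polysomes and 3 as lower. In gcn2 after herbicide 4 of 6 genes passed as higher and 0 as lower, where 9.21% and 10.1% of all probe sets did. In gcn2 after mock 3 passed as higher and 1 as lower, where 7.04% and 10.9% of all probe sets did. In wild type 4 passed as higher and 1 as lower after herbicide, where 9.66% and 9.74% did, and 3 and 1 after mock, where 8.02% and 14.6% did.

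AT-HF, AT1G22410 and AT2G04400 had higher array values in large than in small polysomes in 12 of 12 gradients each, before centring. For AT1G22410 the difference in wild-type mock replicate 1 was only 0.0086. The array values are relative within each fraction and do not give amounts of RNA. The centred difference of AT-HF was 0.57, 0.84, 0.74 and 0.67 in gcn2 herbicide, gcn2 mock, wild-type herbicide and wild-type mock, and all 4 passed (limma adjusted p 0.0014 to 0.0144). AT1G22410 had 0.67, 0.45, 0.60 and 0.56 in the same groups (adjusted p 0.00732 to 0.0499). AT2G04400 had 0.52, 0.56, 0.55 and 0.86 (adjusted p 0.00149 to 0.0321). Without replicate 3, the wild-type mock value of AT1G22410 was 0.39 (adjusted p = 0.102, range 0.00698 to 0.102 over 8 alternatives) and the wild-type herbicide value of AT2G04400 was 0.41 (adjusted p = 0.101, range 0.0196 to 0.207 over 8 alternatives). AT5G66120 passed in both herbicide groups, at 0.70 in gcn2 and 0.70 in wild type, and in neither mock group, at 0.46 in gcn2 and 0.23 in wild type. The wild-type mock mean of AT5G66120 was -0.059 without replicate 2 and 0.50 without replicate 3, and herbicide was not tested against mock in this measure. Of the 14 calls as higher, those of AT-HF in gcn2 mock and in both wild-type groups, and of AT2G04400 in wild-type mock, remained whichever replicate of the group was left out, and each of the other 10 was lost without at least 1 replicate.

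HISN5B was the gene with the opposite distribution. Before centring, its array value was higher in small than in large polysomes in 11 of 12 gradients, the exception being gcn2 herbicide replicate 2. In small polysomes HISN5B stood at 8.85, 8.67 and 8.98 in gcn2 herbicide and at 9.03, 9.03 and 9.00 in gcn2 mock. In large polysomes it was 8.69, 8.78 and 8.35 in gcn2 herbicide and 8.77, 8.53 and 8.32 in gcn2 mock. The centred large minus small difference was -0.54 ± 0.16 in gcn2 mock (adjusted p = 0.0309), -0.49 ± 0.16 in wild-type herbicide (adjusted p = 0.0435) and -0.72 ± 0.16 in wild-type mock (adjusted p = 0.00543), and -0.25 ± 0.16 in gcn2 herbicide, which did not pass (adjusted p = 0.327). The gcn2 mock and wild-type herbicide calls of HISN5B were lost without any one replicate of the group and without centring. The wild-type mock value held without replicate 3, at -0.67 (adjusted p = 0.02, range 0.00477 to 0.0208 over 8 alternatives). IGPD, the gene for the same step, passed in neither direction and had the higher array value in large polysomes in 7 of 12 gradients, before centring.

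**Figure D3:**
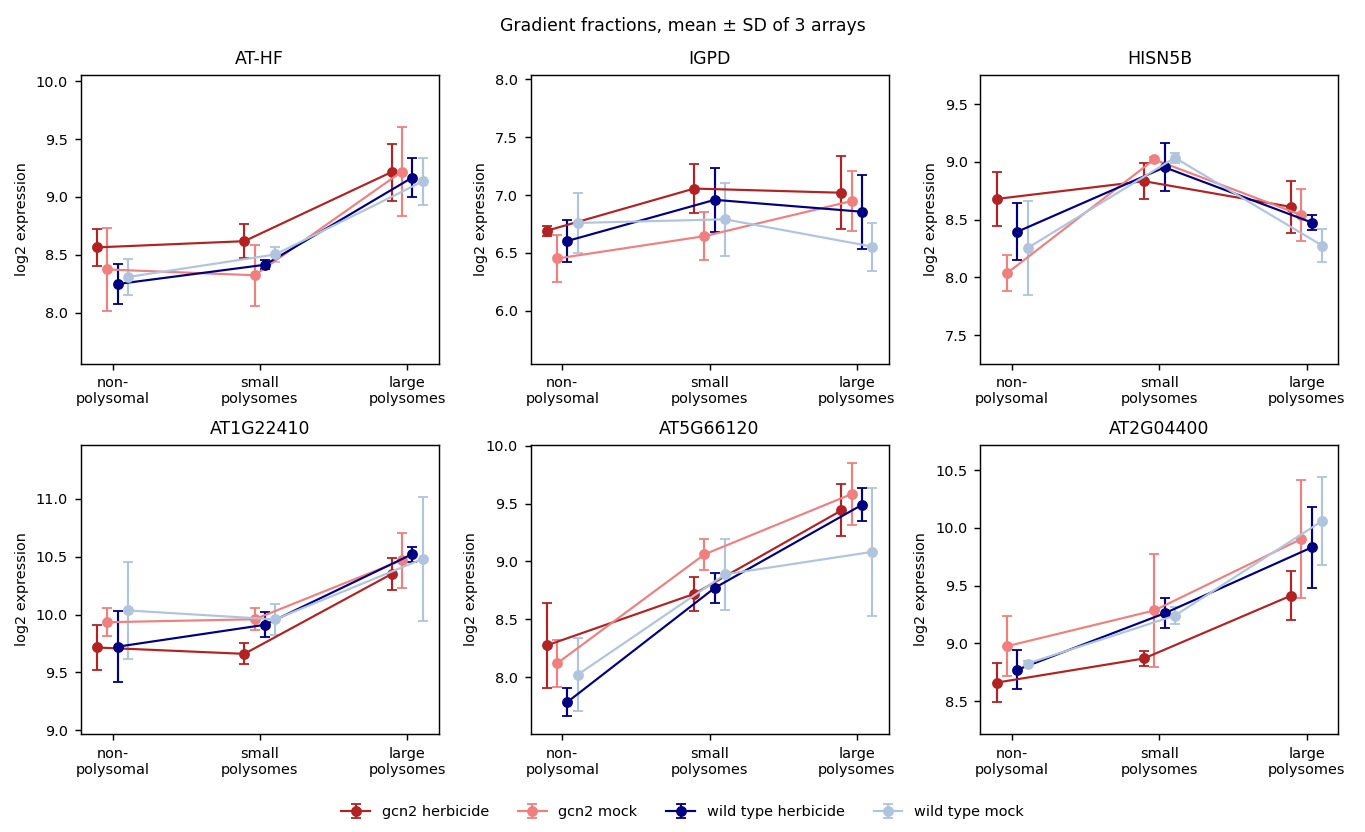
Mean log2 expression ± SD of 3 arrays (vertical axis, span of 2.5 in every panel) in non-polysomal RNA, small polysomes and large polysomes (horizontal axis), with a line for each seedling group. AT-HF, AT1G22410 and AT2G04400 rise between small and large polysomes in every group, whereas the lines of HISN5B turn down there.

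In polysomal RNA the herbicide response passed for 0 of 6 genes in gcn2, against 4.77% of all probe sets, and none had an unadjusted p under 0.05. In wild type 0 of 6 passed, and limma called 0.0% of all probe sets, with 874 probe sets and none of the 6 genes at an unadjusted p under 0.05. The interaction passed for 0 of 6 genes, against 0.409% of all probe sets. Between genotypes 0 of 6 passed under mock, against 0.0659%, and 0 of 6 under herbicide, against 1.93%, and none of these 18 further values had an unadjusted p under 0.05.

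The largest polysomal response among the 6 genes was that of AT2G04400 in gcn2. In small polysomes it was 8.85, 8.94 and 8.81 after herbicide and 9.68, 9.44 and 8.73 after mock. In large polysomes it was 9.47, 9.59 and 9.18 after herbicide and 10.36, 10.01 and 9.35 after mock. Replicate 3 of the mock group was low in both fractions and there lay within or below the herbicide range. The polysomal difference was -0.45 ± 0.22 (adjusted p = 0.321). Without gcn2 mock replicate 3 AT2G04400 fell by 0.73 ± 0.19 and passed (adjusted p = 0.0467, range 0.0467 to 0.791 over 12 alternatives), 1 of 6 genes, where 1.06% of all probe sets were called lower.

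Non-polysomal RNA was compared in the same way, as an addition made after the values had been seen. The herbicide response passed for 0 of 6 genes in gcn2, against 5.62% of all probe sets, and for 0 of 6 in wild type, where limma called 0.0%, with 405 probe sets at an unadjusted p under 0.05. The interaction passed for 0 of 6, against 1.06%, as did gcn2 against wild type under mock, against 0.0747%, and under herbicide, against 7.57%. Of these 30 values, 2 had an unadjusted p under 0.05, for HISN5B and AT5G66120.

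HISN5B in gcn2 non-polysomal RNA was 8.53, 8.95 and 8.56 after herbicide, all above the mock values of 7.86, 8.14 and 8.11. The difference was 0.64 ± 0.22 (unadjusted p = 0.00995, adjusted p = 0.108), while the total RNA difference of HISN5B was -0.15. Wild-type values were 8.53, 8.55 and 8.11 after herbicide and 8.07, 7.97 and 8.72 after mock, with replicate 3 opposite to replicates 1 and 2. The wild-type difference of HISN5B was 0.14 ± 0.22 and, without replicate 3, 0.51 ± 0.21 (adjusted p = 0.213, range 0.213 to 1.0 over 11 alternatives). AT5G66120 under herbicide was 8.54, 8.42 and 7.85 in gcn2 and 7.88, 7.65 and 7.83 in wild type, so the groups overlapped only through gcn2 replicate 3 (0.49 ± 0.22, adjusted p = 0.203).

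AT1G22410 was the wild-type gene that moved most with the choice of replicates in non-polysomal RNA. It was 9.58, 9.51 and 10.07 after herbicide and 10.23, 10.32 and 9.56 after mock. Replicates 1 and 2 had the lower value after herbicide and replicate 3 the higher one. The difference was -0.31 ± 0.22 with all 3 replicates (adjusted p = 0.998), and -0.73 ± 0.20 without replicate 3 (adjusted p = 0.0741, range 0.0741 to 1.0 over 11 alternatives).

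**Figure D4:**
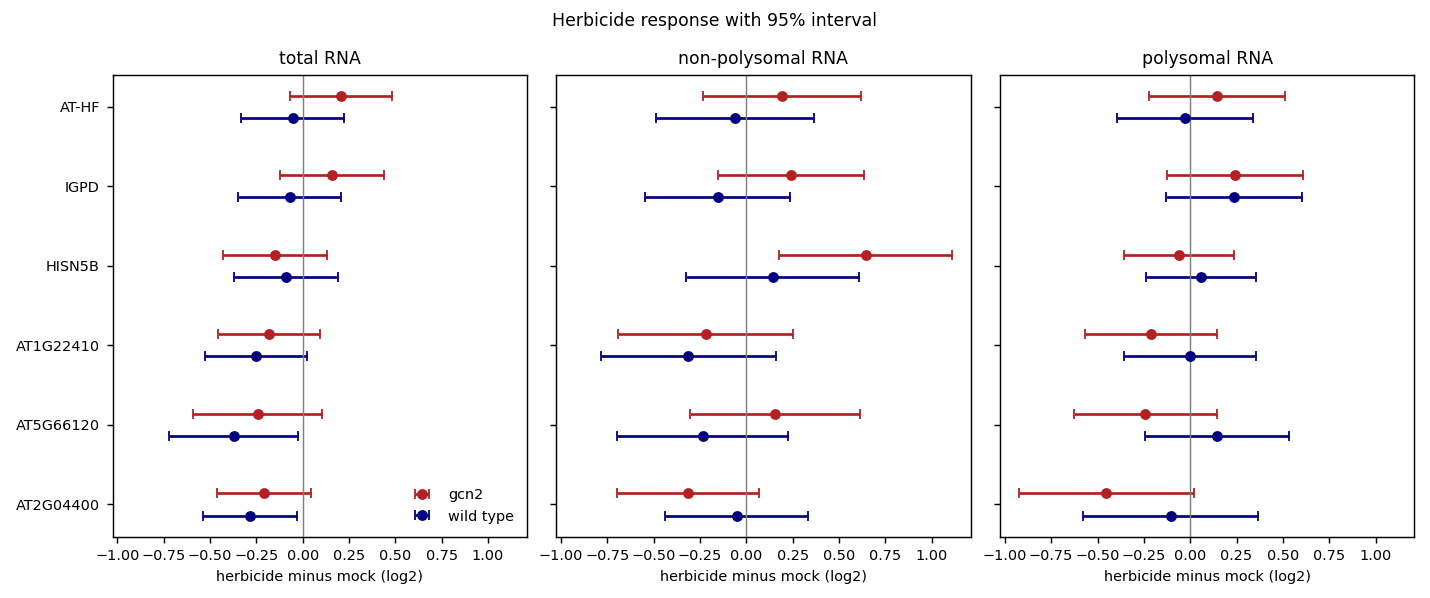
Herbicide minus mock difference on the log2 scale (horizontal axis) with its 95% interval for the 6 genes (vertical axis) in total, non-polysomal and polysomal RNA, for gcn2 (red, upper) and wild type (blue, lower). Most intervals hold 0; those of AT5G66120 and AT2G04400 in wild-type total RNA and of HISN5B in gcn2 non-polysomal RNA do not, before adjustment over all probe sets.

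Changes of polysome loading, without centring, passed for none of the 6 genes. The herbicide response of loading passed for 0 of 6 genes in gcn2, against 0.0484% of all probe sets, and for 0 of 6 in wild type and in the interaction, where limma called 0.0% each, with 1188 and 1419 probe sets at an unadjusted p under 0.05. Between genotypes 0 of 6 passed under mock, against 0.00879%, and 0 of 6 under herbicide, against 0.141%. Of these 30 values, 3 had an unadjusted p under 0.05, for HISN5B and AT5G66120.

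HISN5B loading in gcn2 was 0.24, -0.22 and 0.11 after herbicide, all below the mock values of 1.04, 0.64 and 0.55. The difference was -0.70 ± 0.23 (unadjusted p = 0.00677, adjusted p = 0.391). It holds the same non-polysomal arrays as the comparison above and is no separate evidence. In wild type HISN5B loading was 0.29, 0.21 and 0.45 after herbicide and 0.52, 0.71 and -0.030 after mock, which overlapped (-0.083 ± 0.23, adjusted p = 0.986).

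AT5G66120 loading in gcn2 was 0.66, 0.68 and 1.08 after herbicide and 1.37, 1.00 and 1.24 after mock. In wild type it was 1.35, 1.54 and 1.15 after herbicide, all above the mock values of 0.87, 1.11 and 0.91. The means thus differed by -0.40 in gcn2 and 0.38 in wild type, and the interaction of -0.78 ± 0.29 did not pass (unadjusted p = 0.0155, adjusted p = 0.746). Without wild-type replicate 3 it was -0.85 ± 0.30 (adjusted p = 0.207, range 0.207 to 0.999 over 19 alternatives). Under herbicide, all gcn2 gradients lay below all wild-type gradients (-0.54 ± 0.21, unadjusted p = 0.0173, adjusted p = 0.281). This loading difference holds the same non-polysomal arrays as the value of 0.49 for AT5G66120 above and is no separate evidence. In polysomal RNA the AT5G66120 difference was -0.050 ± 0.18.

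Over the 16 group means of genotype, treatment and RNA type, AT-HF, AT1G22410, AT5G66120 and AT2G04400 had similar patterns, with pairwise Pearson correlations of 0.796 to 0.897. HISN5B correlated with the other 5 genes at -0.379 to 0.23. Over the 12 total RNA arrays alone, correlations among the same 4 genes were -0.146 to 0.695, and those of HISN5B with the other 5 were 0.121 to 0.551. The points share arrays and normalization, and the RNA types differ more than the seedling groups do, so these values describe mainly the place in the gradient. Among 9515 named probe sets above the lower quartile of mean level, the nearest patterns were those of ATSLY1 and AT2G43180 to AT-HF (0.982 and 0.979), AT5G60030 and AT2G01410 to IGPD (0.894 and 0.88), and AT4G02860 and AT5G57370 to HISN5B (0.942 and 0.912). AT5G52540 and NET1A were nearest to AT1G22410 (0.986 and 0.983), AT5G12040 and AT5G05210 to AT5G66120 (0.987 and 0.976), and AT2G44060 and FUG1 to AT2G04400 (0.972 and 0.971).

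The 4 pathway genes beside the 6 were placed in the gradients by the same test. AT1G15710 had a centred loading of 1.12 in gcn2 herbicide, 1.22 in gcn2 mock, 1.19 in wild-type herbicide and 0.78 in wild-type mock, and all 4 passed. AT5G48220 was lower than the median probe set in gcn2 mock (-0.37 ± 0.14, limma adjusted p = 0.0451) and in wild-type mock (-0.39 ± 0.14, limma adjusted p = 0.0391). Both values were opposite in sign to those of AT2G04400 of the same pathway. Of all 22746 probe sets, 6634 passed in gcn2 mock in either direction, 3250 of them as higher. In wild-type mock 6626 passed, 2774 of them as higher. The calls of AT5G48220 were not refitted under the alternatives. AT4G02610 and AT5G34930 passed in no group. In large minus small polysomes, AT5G48220 passed as higher in gcn2 mock (0.63 ± 0.18, adjusted p = 0.0232), as did 7.04% of all probe sets. The other 3 genes passed in no group.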

How the data were processed

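The authors deposited 1 table of log2 expression values, and per the submitters' processing notes RMA, affy and MAS5 were used. Neither their versions nor whether all 48 arrays were normalized together is given in the sources used here. Of 22810 probe sets, 64 controls were left out and 22746 tested. Names came from the platform's probe table and RefSeq (TAIR10.1): 13513 probe sets had 1 gene, 503 several and 8730 none here. Columns were assigned to samples by title.

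Group means were fitted with limma 3.58.1 in R 4.3.3 (lmFit, eBayes), separately for 12 total RNA arrays and for polysomal RNA, non-polysomal RNA and polysome loading of 12 gradients. Tests were two-sided, with Benjamini-Hochberg adjustment over all tested probe sets and a threshold of 0.05. The fit was tested on simulated data for gcn2, herbicide against mock. It called 85% of planted log2 changes of size 1 in total RNA, but 46% of those in polysome loading. Figures used matplotlib 3.10.9. The number of arrays limits the precision, and replicates of a group correlated at 0.929 to 0.9962.

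Whether replicate numbers pair the samples was checked from correlations of deviations from the group means: 18 of 18 same-numbered pairs passed 0.1 in total RNA (mean 0.366), 15 in polysomal RNA, 10 in non-polysomal RNA and 4 in loading. The blocked value therefore stands beside total RNA results it changes, and beside some that it does not.

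The 6 genes and the gene lists were chosen with earlier results of these data known. All 6 were named whatever their values. Of other listed genes, up to 2 past the threshold per list, comparison and direction were named, and further ones only to account for a list. Likeness took the 2 named genes with the highest Pearson correlation. Alternatives were the replicate block, centring of arrays, a variance trend, a filter on the dimmest 25%, each polysome fraction alone and leaving out replicates. They were read for the 6 genes and for counts of all probe sets, not for the other listed genes.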

Additional observations from a re-analysis of the deposited data

How the results depend on the processing

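With 3 arrays a group, the standard errors of the 6 genes in total RNA were 0.12 to 0.16, and in polysome loading 0.20 to 0.26, which limits what could be seen. Of 1536 values of the 6 genes between groups under the alternatives, 1534 kept their side of the threshold, and the 2 that newly passed are those of AT5G66120 with the block and of AT2G04400 without gcn2 mock replicate 3, given above. Among the uncalled, 119 had the other sign. Among loading levels, 16 of 228 values lost their call and 9 gained one. The gcn2 mock level of AT-HF had the opposite sign with small polysomes alone, at -0.043. Among large minus small values, 37 of 180 lost their call, 30 of them when a replicate of the same group was left out, which leaves 2 samples there. HISN5B lost its call in gcn2 mock and wild-type herbicide when any replicate of those groups was left out, and so did AT1G22410. The same held for AT2G04400 in gcn2 herbicide and gcn2 mock, and for AT5G66120 in wild-type herbicide. The cause was not tested.

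The following are numbers of all tested probe sets past the threshold. With the replicate as a block, total RNA gave 4926 in gcn2, 3643 in wild type, 1051 in the interaction, 163 under mock and 2561 under herbicide, against 2626, 1530, 347, 31 and 1022. The block gave 1685 for polysomal RNA in gcn2 and 748 between genotypes under herbicide, against 1085 and 440, and for loading 7 in gcn2, 1 under mock and 7 under herbicide, against 11, 2 and 32. In polysomal RNA 15 of 18 same-numbered pairs correlated above 0.1, with a mean of 0.293 beside -0.145 for different numbers. Same-numbered samples thus deviated together there too, and the main polysomal fit does not use this pairing. In loading 4 of 18 pairs correlated above 0.1, with a mean of -0.006, and the numbers were not taken as pairs. Among the 6 genes the block ended the call of AT1G22410 in gcn2 mock (adjusted p = 0.0623) and HISN5B in wild-type herbicide (adjusted p = 0.0527) in large minus small polysomes, and changed no other call besides AT5G66120. Centring each array gave 210 for the polysomal interaction against 93, 7 for loading in gcn2 and 1 for its interaction against 0. A variance prior with a trend gave 1 for the loading interaction and 84 for loading under herbicide. Large polysomes alone gave 402 in gcn2, 14 in the interaction, 9 under mock against 15, and 150 under herbicide, with loading at 1 in gcn2, 1 under mock and 2 under herbicide. Small polysomes alone gave 174 for the interaction, and for loading 19 in gcn2 and 215 under herbicide. Without replicate 3 of the wild-type gradients there were 205 for wild-type polysomal RNA against 0, 540 for wild-type non-polysomal RNA against 0, and for loading 1 in wild type, 1 in the interaction, 4 under mock and 765 under herbicide.

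Leaving out 1 replicate at a time gave, lowest to highest, 1712 to 2540 for total RNA in gcn2, 670 to 1368 in wild type, 247 to 390 for the interaction, 21 to 43 under mock and 613 to 900 under herbicide. For polysomal RNA it gave 612 to 1082, 0 to 0, 23 to 149, 10 to 20 and 200 to 354 in the same order. Loading gave 0 to 7, 0 to 0, 0 to 1, 1 to 4 and 2 to 68. Non-polysomal RNA gave 754 to 1085, 0 to 0, 115 to 226, 12 to 29 and 724 to 1638. Levels of loading gave 3943 to 4160 in gcn2 herbicide, 4423 to 4857 in gcn2 mock, 4120 to 5277 in wild-type herbicide and 4824 to 6615 in wild-type mock. Large minus small polysomes gave 1484 to 2752, 1834 to 2481, 1846 to 2432 and 4579 to 6701 in the same groups.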
